A study of Gallus gallus with 3 samples.

Results

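The genes that make, clear and sense retinoic acid were compared between cultured chicken primordial germ cells (PGCs) and embryonic stem cells (ESCs) by RNA sequencing. PGCs are the embryonic precursors of eggs and sperm. ESCs, derived from the early embryo, served in the study as a somatic counterpart. Both were cultures of Gallus gallus cells, the PGCs from the migratory stage, with 2 PGC libraries (replicates 2 and 3) and 1 ESC library (replicate 2). No treatment was named, and the line, sex and culture medium of the cells, including its retinoids, were not given in the sources used here. The 10 genes were STRA6, RDH10, ALDH1A1, ALDH1A2, ALDH1A3, CYP26A1, CYP26B1, CYP26C1, RARA and RARB, taken by symbol from the 19152 genes of the count table, and all 10 were found. They were picked with their PGC and ESC values known, so that contrast is described for them without a test.

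Retinoic acid is a small lipophilic signal derived from vitamin A. Some cells take up retinol through the membrane receptor STRA6. Retinol is oxidised to retinal, mainly by RDH10, and then to retinoic acid by the ALDH1A dehydrogenases. The CYP26 enzymes hydroxylate retinoic acid and so remove it. What remains binds the nuclear receptors RARA, RARB and RARG, which pair with RXR proteins on DNA. RARB and CYP26A1 are themselves induced by retinoic acid in many vertebrate cells. In mouse embryos, retinoic acid promotes entry of female germ cells into meiosis, and CYP26B1 of the testis delays it.

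Libraries held between 19754278 and 20568106 counts assigned to genes. Counts were scaled to library size with TMM factors (trimmed mean of M-values) and given as CPM (counts relative to the scaled total of the library). For levels compared between genes, counts were divided by exon length and given as TPM (length-scaled counts relative to their total in the library). A log2 ratio is the log2 CPM of a PGC library minus that of the ESC library, with 2 counts added to damp ratios of low counts. The cell labels were checked with marker genes. The 5 germ cell markers summed to 3654 and 3975 CPM in PGC replicates 2 and 3, against 68.5 CPM in the ESC library. Of these, the study itself reports DAZL, DDX4, PIWIL1 and MAEL as higher in its PGCs. The 5 of 6 pluripotency markers that were matched summed to 251 and 405 CPM in PGCs against 371 CPM. Most of this was NANOG, at 198.9 and 294.2 CPM in PGCs against 241.2 CPM. In both PGC libraries 1 of the 5 was lower by at least 2-fold and 0 were higher. The lower gene was LIN28A, at 3.125 and 16.03 CPM against 68.12 CPM. The ESC library also held more RNA of paraxial and intermediate mesoderm markers. These 5 genes summed to 20.7 and 58.8 CPM in PGCs against 252 CPM in the ESC library. Each of the 5 was lower by at least 2-fold in PGC replicates 2 and 3, where 4 and 3 of them had at most 3 counts. The 5 of 6 endoderm markers matched summed to 3.97 and 2.4 CPM against 58.0 CPM, of which GATA4 alone gave 54.4 CPM. In PGCs 2 were lower (GATA4 and GATA6) and 2 were higher (SOX17 and TTR). Of fibroblast and mesenchyme markers 7 of 8 were matched, with 3 lower and 1 higher (COL3A1), and their sum of 626 and 736 CPM in PGCs against 115 CPM came mostly from COL3A1 and COL1A2. The 3 of 6 neural markers matched summed to 498 and 462 CPM against 18.1 CPM, nearly all of it ELAVL4. Of erythroid markers 2 of 6 were matched, with 1 lower in PGCs (ALAS2) and a sum of 90.6 and 82.8 CPM against 97 CPM. The part of these markers in the values below was not tested. In such bulk libraries, fewer cells expressing a gene and less RNA per cell cannot be told apart.

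Except for ALDH1A1, each of the 10 genes reached 10 counts in some library, leaving 9 that passed this count filter. Of the 10 genes, 5 were at least 2-fold higher in both PGC libraries than in the ESC library (ALDH1A2, ALDH1A3, CYP26A1, CYP26C1 and RARB), and 2 were at least 2-fold lower in both (STRA6 and RARA). Among all 14489 genes that passed, 21.6% met this rule upward and 15.8% downward. The background split depended on scaling, since 57.7% of the genes meeting the rule were higher in PGCs with TMM, 70.2% with total counts and 75.1% with TPM. CYP26B1 and RDH10 met neither rule. In sum, the 10 genes reached 138 and 112 TPM in PGC replicates 2 and 3, against 62.0 TPM in the ESC library. On the TPM scale the median log2 ratio of all genes was 0.49, against 0.03 with TMM. TPM sums compared between PGCs and the ESC library, here and below, carry this shift.

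**Figure D1:**
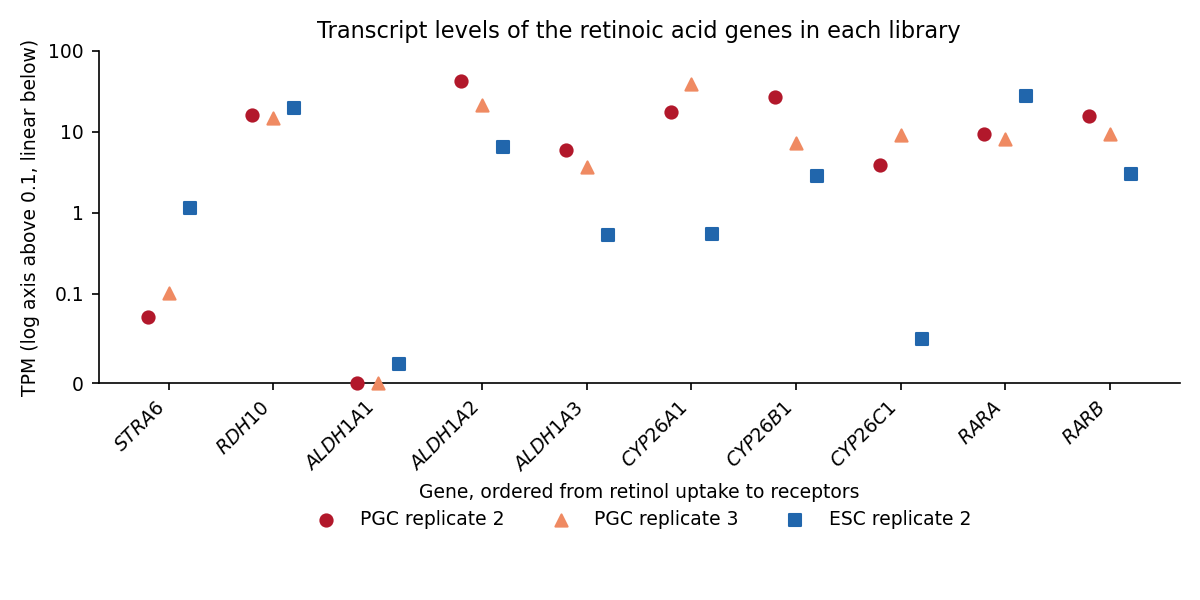
TPM of the 10 retinoic acid genes (log axis above 0.1, linear below) in PGC replicate 2 (circles), PGC replicate 3 (triangles) and ESC replicate 2 (squares), 1 point per library. ALDH1A2, ALDH1A3, all CYP26 genes and RARB lay higher in both PGC libraries, and STRA6, RDH10 and RARA higher in the ESC library.

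The order of the genes by level differed between the cell types. In PGCs, ALDH1A2 was the most abundant of the 10 by length-scaled level, at 31.9 ± 14.6 TPM (SD, n = 2), followed by CYP26A1 at 28.1 ± 14.7 TPM. From ALDH1A2 down to ALDH1A3, each gene overlapped its neighbour in the order, so adjacent ranks were not separable. The ranges of ALDH1A2 and CYP26A1 nevertheless lay wholly above those of RDH10, RARB, RARA, CYP26C1 and ALDH1A3. STRA6 and ALDH1A1 lay below them. In the ESC library RARA was the most abundant, at 27.9 TPM (95% counting interval 25.6 to 30.3), followed by RDH10 at 19.5 TPM (17.9 to 21.1) and ALDH1A2 at 6.49 TPM (5.74 to 7.32). Counting intervals cover counting error only, and reads without molecular identifiers are not independent molecules.

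Vitamin A entry was considered first. STRA6 (ENSGALG00000001449, galGal5 chromosome 10, 2519526 to 2529895) had 2 and 3 counts in PGC replicates 2 and 3, against 37 counts in the ESC library. The ESC level was 1.15 TPM, so transcripts of this retinol transporter were scarce in every library. Pooled over both PGC libraries, its CPM was 0.0555 of the ESC value (95% counting interval 0.017 to 0.142). RDH10 (ENSGALG00000034346, chromosome 2, 118162623 to 118187363), which oxidises retinol to retinal, had 399 counts in each PGC library and 571 counts in the ESC library. Its TPM was 16.1 and 14.9 in PGCs and 19.5 in the ESC library. The log2 ratios were −0.85 and −0.74, short of 2-fold but of the same sign in both libraries, with a spread of 0.07 (SD, n = 2). With TPM the mean log2 ratio was −0.33, while the median of all genes stood at 0.49 on that scale.

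Among transcripts for the last step of synthesis, those of ALDH1A2 were the most abundant in both cell types. ALDH1A2 (ENSGALG00000004270, chromosome 10, 7045146 to 7260351), the main retinaldehyde dehydrogenase of the early vertebrate embryo, had 1472 and 809 counts in PGC replicates 2 and 3, against 267 counts in the ESC library. In TPM these were 42.2 and 21.6 in PGCs, against 6.49. Both PGC libraries lay above the ESC library, by 4.37-fold and 2.58-fold in CPM. ALDH1A3 (ENSGALG00000033365, chromosome 10, 17449825 to 17484802), a second enzyme of this step, had 242 and 162 counts in PGCs and 26 counts in the ESC library. Its level was lower than that of ALDH1A2 in every library, at 5.85 and 3.64 TPM in PGCs and 0.533 TPM in the ESC library. In log2 terms ALDH1A3 stood 2.80 and 2.33 above the ESC library. ALDH1A1 (ENSGALG00000015147, chromosome Z, 35893999 to 35947479), the remaining retinaldehyde dehydrogenase, had 0, 0 and 1 counts, so no difference was detectable at this depth.

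Of the counts of the ALDH1A family, ALDH1A3 took 14.1% in PGC replicate 2 (12.6 to 15.8 by the Wilson method at 95%). Its share of counts was 16.7% in PGC replicate 3 (14.5 to 19.2), against 8.84% in the ESC library (6.11 to 12.6). The interval of PGC replicate 2 touched that of the ESC library at its edge, whereas that of PGC replicate 3 did not. Summed over the family, the level was 48.1 and 25.2 TPM in PGCs, against 7.05 TPM in the ESC library. ALDH1A2, ALDH1A3 and STRA6 all lie on chromosome 10, which carries 2.8% of the genes in the table. They are far apart there, with 4.52 megabases between STRA6 and ALDH1A2 and 10.2 megabases between ALDH1A2 and ALDH1A3. ALDH1A2 and ALDH1A3 were higher in PGCs and STRA6 was lower.

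Of the genes for retinoic acid clearance, CYP26A1 and CYP26C1 had the largest log2 ratios in size among the 9 genes. CYP26A1 (ENSGALG00000033695, chromosome 6, 20555766 to 20558838), the CYP26 enzyme best known for shielding caudal embryonic tissue from retinoic acid, had 334 and 784 counts in PGC replicates 2 and 3, against 12 counts in the ESC library. In TPM this was 17.7 and 38.5 in PGCs and 0.538 in the ESC library. The CPM was 22.1-fold and 55.7-fold higher in the PGC libraries, with log2 ratios of 4.28 and 5.61. CYP26C1 (ENSGALG00000043213, chromosome 6, 20561818 to 20567803), a related hydroxylase, had 67 and 169 counts in PGCs and 1 count in the ESC library. With a single ESC count, the pooled CPM ratio of 97 carried a counting interval from 17.2 to 3846. Both genes were thus far above the ESC library in each PGC library and were more than 2-fold higher in PGC replicate 3 than in PGC replicate 2.

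CYP26B1 (ENSGALG00000016102, chromosome 4, 90736410 to 90740599), the form that removes retinoic acid in the mouse fetal testis, behaved differently. It had 254 and 74 counts in PGC replicates 2 and 3, against 32 counts in the ESC library, and an exon model of 963 bases in the annotation used. PGC replicate 2 stood 6.3-fold above the ESC library, whereas PGC replicate 3 stood 1.97-fold above it, just under the 2-fold rule. Its mean log2 ratio of 1.77 came with an SD of 1.17 between PGC libraries, the widest spread among the 9 genes. With total counts or TPM as the scale, CYP26B1 also passed the rule.

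**Figure D2:**
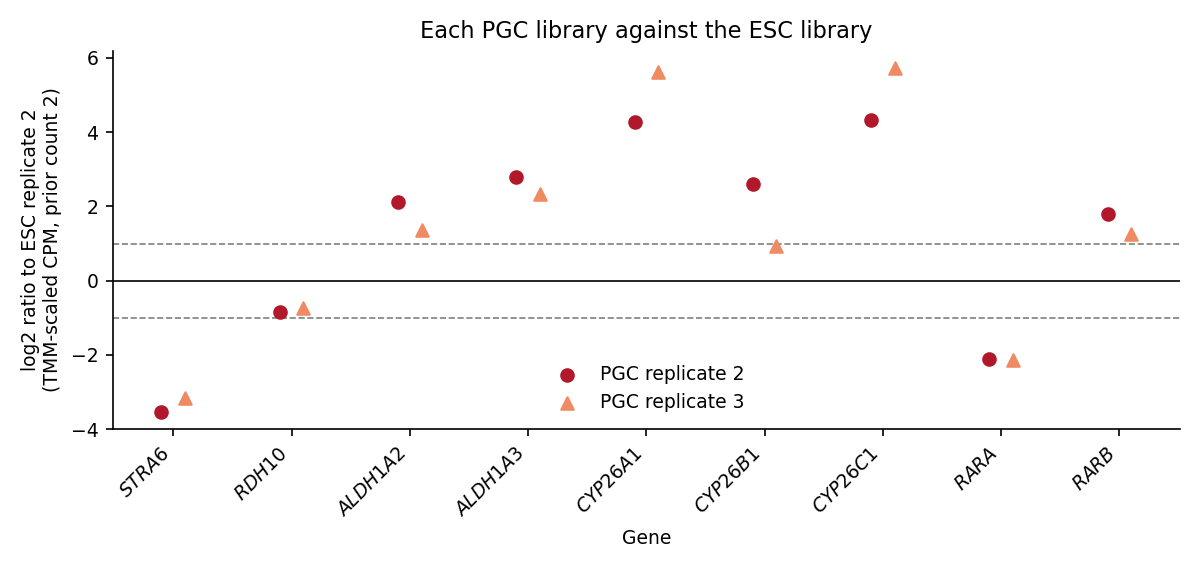
Log2 ratio of TMM-scaled CPM (prior count 2) of PGC replicate 2 (circles) and PGC replicate 3 (triangles) to the ESC library for the 9 genes that passed the count filter. Dashed lines mark 2-fold, and CYP26A1 and CYP26C1 lie between 4.28 and 5.73 while RARA and STRA6 lie below −2.

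Summed over the CYP26 family, the level was 48.4 and 54.8 TPM in PGCs, against 3.45 TPM in the ESC library. In TPM the family sum was similar in both PGC libraries, although its make-up was not. In counts the sum was less alike, at 655 in PGC replicate 2 and 1027 in PGC replicate 3. CYP26A1 took 51% of the family counts in PGC replicate 2 (95% Wilson interval 47.2 to 54.8) and 76.3% in PGC replicate 3 (73.6 to 78.8), against 26.7% in the ESC library (16 to 41). CYP26B1 took 38.8% in PGC replicate 2 (35.1 to 42.6) and 7.21% in PGC replicate 3 (5.78 to 8.95), against 71.1% in the ESC library (56.6 to 82.3), where the whole family had 45 counts. By counts CYP26A1 thus led the family in both PGC libraries and CYP26B1 in the ESC library. Scaled to exon length, CYP26B1 had 26.8 and 7.26 TPM in PGC replicates 2 and 3, against 2.86 TPM in the ESC library. On that scale CYP26B1 exceeded CYP26A1 in PGC replicate 2, where CYP26A1 had 17.7 TPM, so the order by TPM differed between the PGC replicates. That order, the similar family sums in TPM and the shares of counts rest on exon models of 963 bases for CYP26B1 and 1923 bases for CYP26A1. The completeness of these models was not checked.

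CYP26A1 and CYP26C1 are neighbours on the same strand of chromosome 6, with 2979 bases between them. The 4 annotated genes on either side were examined to see whether the surrounding region moved with them. On the CYP26A1 side, MYOF had log2 ratios of 0.21 and 0.35 and CEP55 had 0.90 and 0.51. On the CYP26C1 side, EXOC6 had 0.08 and 0.63 and HHEX, a homeobox gene, had 0.77 and 1.76. All 8 flanking genes lay between −1.36 and 1.76, below either CYP26 gene in both PGC libraries. Exons of CYP26C1 and EXOC6 share 370 bases on the same strand, so reads there could be assigned to either gene or to none, and the CYP26C1 counts are uncertain to that extent. No other member shared exon bases with another gene, apart from 48 bases of ALDH1A2 that overlap a gene on the other strand.

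**Figure D3:**
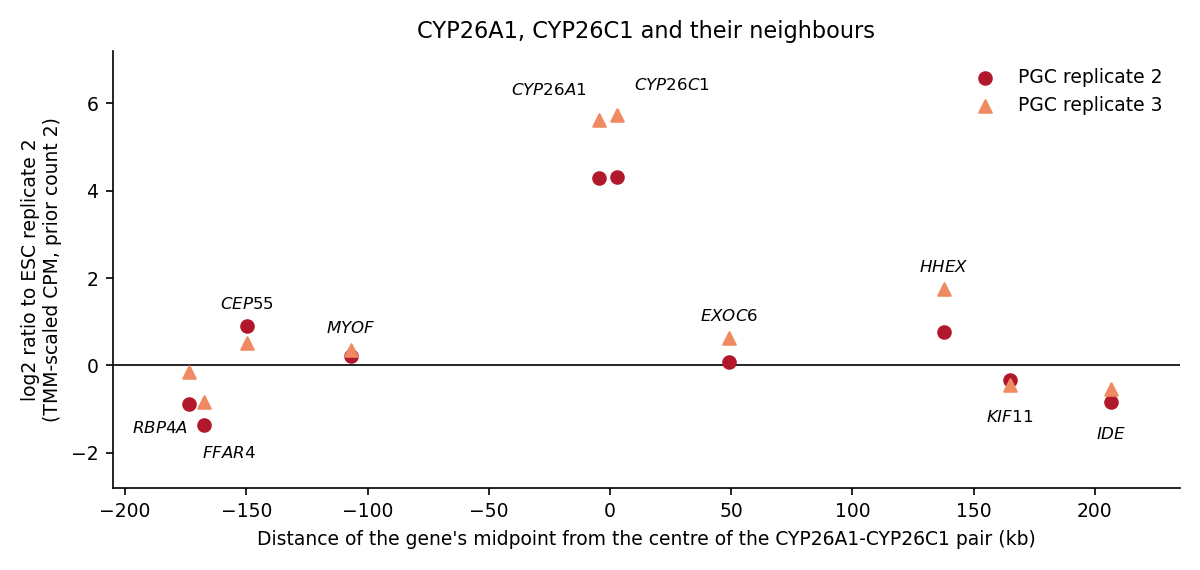
Log2 ratio of TMM-scaled CPM (prior count 2) to the ESC library for CYP26A1, CYP26C1 and the 4 genes on each side, against the distance of each gene's midpoint from the centre of the pair in kb. PGC replicate 2 is drawn as circles and PGC replicate 3 as triangles, and the pair stands above its flanks in both.

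The receptors moved in opposite directions. RARA (ENSGALG00000037935, chromosome 27, 4830348 to 4836063) had 162 and 148 counts in PGC replicates 2 and 3, against 562 counts in the ESC library. The log2 ratios of RARA were −2.11 and −2.14, the closest agreement between PGC libraries among the 9 genes (SD 0.02, n = 2). RARB (ENSGALG00000011298, chromosome 2, 37655934 to 37978166) had 377 and 240 counts in PGCs and 85 counts in the ESC library, and its PGC levels were 1.79 and 1.25 higher on the log2 scale. The PGC libraries lay on the same side of the ESC library for both receptors. In TPM, RARA had 9.49 and 8.05 in PGCs against 27.9 in the ESC library, and RARB had 15.7 and 9.29 in PGCs against 3.004. Of the counts of both receptors, RARB made up 69.9% in PGC replicate 2 (95% Wilson interval 65.9 to 73.7) and 61.9% in PGC replicate 3 (56.9 to 66.6), against 13.1% in the ESC library (10.8 to 16). Summed over both receptors, the level was 25.2 and 17.4 TPM in PGCs and 30.9 TPM in the ESC library, so the balance differed more than the total. RARG had no match in the files used here and was not analysed here.

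Differences between the PGC libraries were then examined. They use no ESC value, but the genes were picked with their PGC values known. Between replicates 3 and 2, 3 of the 9 genes differed by at least 2-fold (CYP26A1, CYP26B1 and CYP26C1), where 8.85% of all 14489 genes did. Of these, CYP26A1 and CYP26C1 were higher in replicate 3, as were 4.13% of all genes, and CYP26B1 was lower, as were 4.72%. CYP26A1 was 2.52 times as high in CPM in replicate 3 (95% counting interval 2.22 to 2.88), and CYP26C1 was 2.71 times as high (2.03 to 3.65). CYP26B1 went the other way, at 0.313 of its replicate 2 level (0.238 to 0.407). ALDH1A2 stood at 0.591 (0.542 to 0.644), RARB at 0.684 (0.58 to 0.807) and ALDH1A3 at 0.72 (0.586 to 0.882), and none of these 3 counting intervals reached 1. Their log2 differences of −0.76, −0.54 and −0.47 compare with an SD of 0.394 between these libraries over 9667 genes whose counts reached 100 in both. For RDH10, RARA and STRA6 the interval included 1. Single marker genes also differed between replicates 2 and 3, with LIN28A at 70 and 334 counts. TBX6 had 458 and 1214 counts, and COL1A2 had 1150 and 6813 counts. Other genes of the same marker lists went either way. PRDM14 had 458 and 930 counts, but SOX2 had 58 and 34, COL3A1 12768 and 8382 and OSR1 2 and 1. These lists thus did not rise as a whole in replicate 3, and the part of such differences was not tested. With 1 library each, these values compare libraries, and no test between cultures was possible.

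**Figure D4:**
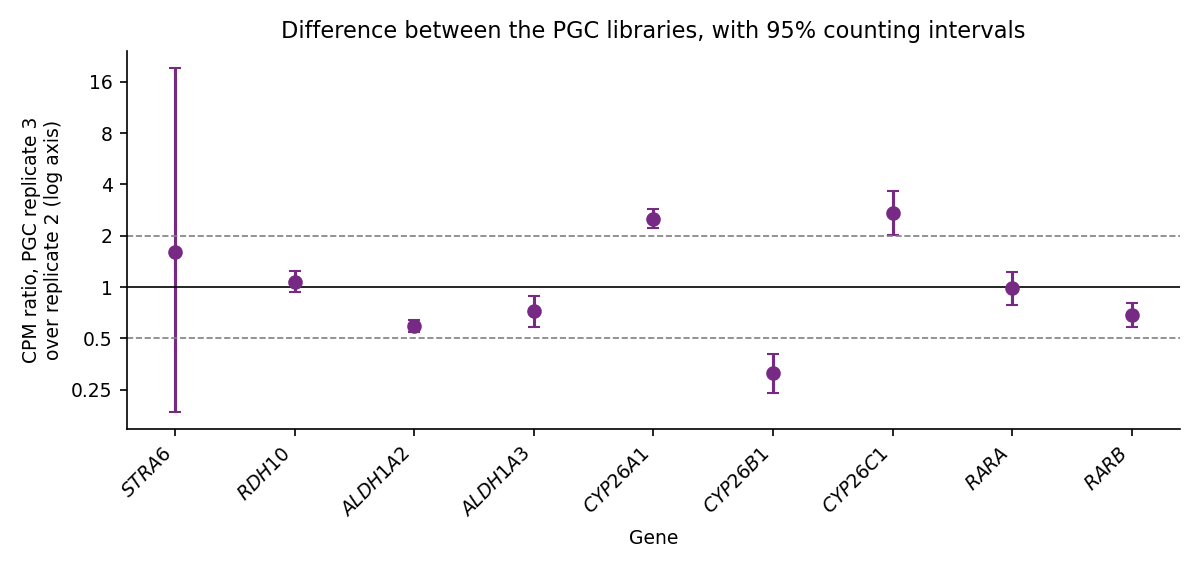
CPM in PGC replicate 3 divided by CPM in PGC replicate 2 (log axis) for 9 retinoic acid genes, with 95% exact counting intervals as bars and 2-fold as dashed lines. CYP26A1 and CYP26C1 lie above 2, CYP26B1 lies below 0.5, and the intervals of RDH10, RARA and STRA6 span 1.

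The wider retinoid pathway was covered with 37 further symbols for transport, oxidoreductases, receptors and cofactors, of which 28 were matched, to 29 genes. Of the 28 genes that passed the count filter, 5 rose and 8 fell in PGCs at an adjusted p-value under 0.05 in edgeR's quasi-likelihood test, and 15 did not pass. Over all 14489 genes the same test called 21.2% higher and 20.6% lower. These symbols, too, were chosen with earlier results of these data known. The fit had 1 residual degree of freedom, its spread came from the PGC libraries, and the lone ESC library was assumed to vary like them. Averaged over the PGC libraries, log2 ratios had a median of −0.25 over the 28 genes and 0.03 over all genes. By the 2-fold rule the counts were also 5 higher and 8 lower, with RXRG in place of FABP5.

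Retinoid carriers changed in both directions. CRABP2, which hands retinoic acid to its nuclear receptors, had 28 and 67 counts in PGC replicates 2 and 3, against 539 counts in the ESC library (log2 fold change −3.77, adjusted p = 0.000272). CRABP1, the related cytoplasmic binding protein, had 56 and 48 counts against 169 (−1.98, adjusted p = 0.00546), with 111 of its exon bases shared with a gene on the other strand. The cellular retinol-binding protein gene RBP5 had 200 and 193 counts against 720 (−2.16, adjusted p = 0.000297). All 3 of these intracellular carriers thus fell. The gene named RBP4 in the files, on chromosome Z, had 36 and 48 counts against 4 (adjusted p = 0.0174), and the 805 genes of that chromosome had a median log2 ratio of 0.77. TTR, a plasma carrier that binds retinol-binding protein, had 34 and 15 counts against 1 (adjusted p = 0.0273), and it is also on the endoderm marker list above. With DESeq2's Wald test the adjusted p was 0.0692 for RBP4 and 0.107 for TTR, so both calls were lost.

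Some enzymes upstream of retinoic acid also differed between the cell types. Of the 8 other oxidoreductases tested, 1 rose, 2 fell and 5 did not pass, where 21.2% of all genes were called higher and 20.6% lower. BCO1, BCO2 and LRAT were listed with transport and storage. BCO1, which cleaves beta-carotene into retinal, had 246 and 73 counts in PGC replicates 2 and 3, against 8 counts in the ESC library (log2 fold change 3.99, adjusted p = 0.00479). BCO2, the eccentric carotenoid cleavage enzyme, had 39 and 37 counts against 99 (−1.66, adjusted p = 0.022), a call lost in DESeq2 (adjusted p = 0.115). ADH1C, an alcohol dehydrogenase able to oxidise retinol, had 246 and 190 counts against 21 (3.08, adjusted p = 0.00109). Each of BCO1 and ADH1C was higher in both PGC libraries. RDH11, a retinal reductase, had 2093 and 1662 counts against 5211 (−1.76, adjusted p = 0.000376). DHRS3, which converts retinal back to retinol, had 271 and 188 counts against 587 (−1.64, adjusted p = 0.00214). In RDH14, 974 and 893 counts in PGCs against 475 did not pass (adjusted p = 0.0519). LRAT, which esterifies retinol for storage, was low throughout, with 16 and 8 counts in PGCs and 10 counts in the ESC library.

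Of the 10 other receptors and cofactors tested, 2 fell and 8 did not pass, where 20.6% of all genes were called lower. PPARD, a nuclear receptor that retinoic acid can reach through the binding protein FABP5, had 193 and 139 counts in PGC replicates 2 and 3, against 1063 counts in the ESC library (log2 fold change −2.97, adjusted p = 4.57e-05). FABP5 itself had 203 and 104 counts against 316 (−1.34, adjusted p = 0.0241), with log2 ratios of −0.97 and −1.81. RXRA, a DNA-binding partner of the RARs, had 176 and 193 counts in PGCs and 136 counts in the ESC library (0.16, adjusted p = 0.759). RXRG had 6 and 6 counts against 21 (adjusted p = 0.0771). Corepressors and coactivators, among them NCOR1, NCOA1, NCOA2, NCOA3 and NRIP1, had log2 fold changes between −0.73 and 0.53. Exons of NCOA2 share 1572 bases with another gene on the same strand, which makes its count uncertain.

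**Figure D5:**
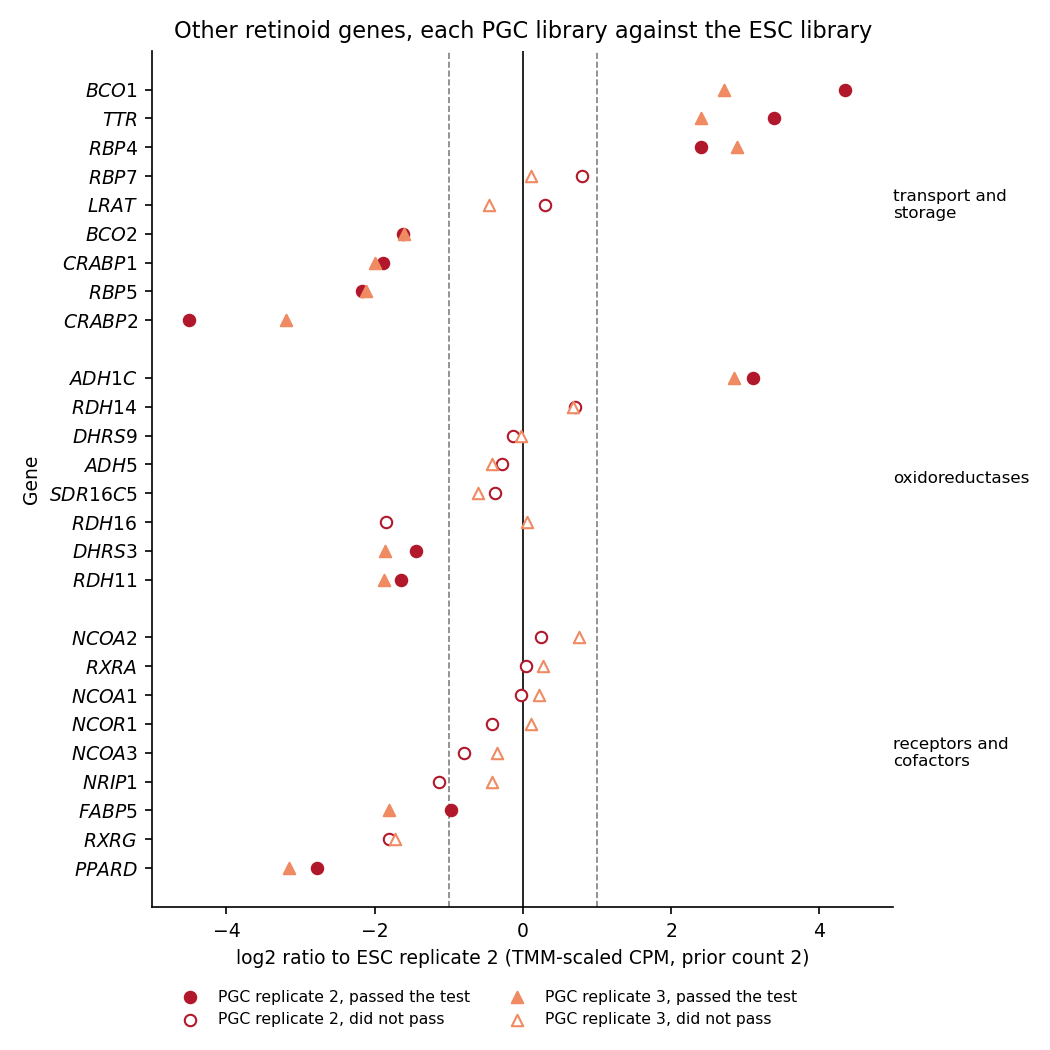
Log2 ratio of TMM-scaled CPM (prior count 2) of PGC replicate 2 (circles) and PGC replicate 3 (triangles) to the ESC library for further retinoid genes, grouped by role, with dashed lines at 2-fold. Filled symbols passed edgeR's test at an adjusted p under 0.05, and they lie on both sides for transport genes and on the lower side for receptors and cofactors.

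Genes known to respond to retinoic acid in vertebrate embryos were examined last. Of 16 symbols 15 were matched, to 16 genes, and 15 genes passed the count filter, of which 1 rose and 8 fell. Of all 14489 genes, the same test called 21.2% higher and 20.6% lower. The list was chosen with earlier results of these data known, and the study itself reports HOX genes as repressed in its PGCs. The counts and p-values for this list therefore describe these libraries and are not independent evidence. STRA8, which retinoic acid induces in mouse germ cells and which is needed there for meiosis, had 594 and 368 counts in PGC replicates 2 and 3, against 9 counts in the ESC library (log2 fold change 5.43, adjusted p = 5.79e-05). In TPM it reached 76.2 and 43.9 in PGCs, against 0.979 in the ESC library, and it was the only gene of this list to rise. The genes that fell included the axial patterning genes HOXA3, HOXB1, HOXB4, CDX1 and CDX4. CDX1 had 1 and 2 counts in PGCs against 108 counts in the ESC library. FGF8, which retinoic acid represses in the trunk of vertebrate embryos, had 6 and 8 counts against 214 (−5.19, adjusted p = 7.78e-05). Of the 2 genes named TGM2, a transglutaminase, that on chromosome 20 had 24 and 24 counts against 184 (−3.21, adjusted p = 0.000609), and that on chromosome 32 had 3686 and 4133 counts against 3901 and did not pass. MEIS1, MEIS2 and TSHZ1 did not pass either, with log2 fold changes of −0.67, −0.64 and −0.48. The list thus held genes induced and repressed by retinoic acid among those that fell.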

How the data were processed

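Total RNA came from TRIzol extraction. The methods name alternative sequencing instruments, providers and read lengths for the RNA libraries, without saying which library had which. Whether these differed between the libraries compared here cannot be told. According to the methods, the authors mapped paired-end reads with TopHat and Bowtie 2 to Ensembl transcripts of galGal5 and counted them per gene with featureCounts, and how the counting treated strand and shared exons is not given in the sources used here. The deposited counts are whole numbers per gene, with exon lengths. A second table by the authors gives a normalized signal (deposited counts divided by 1 size factor per library in 100% of values), symbols, and fold changes and p-values, of which only symbols and signal were used. A further 4 columns of per-sample values matching no label were not used. The study's methods call its replicates biological and name a further replicate of each cell type, which is not analysed here.

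Genes were kept if any of the 3 libraries had 10 counts or more (14489 kept, 4663 removed). TMM factors and log2 CPM (prior count 2) came from edgeR 4.0.16 in R 4.3.3. A gene was called when each PGC library differed at least 2-fold from the ESC library, with the same sign. For genes other than the members, edgeR's quasi-likelihood test was fitted to all 14489 genes with Benjamini-Hochberg adjustment. Between 12701 and 13594 genes per library had at least 10 counts, and 3 counts, the limit that a count of 0 allows, equalled 0.134 to 0.169 CPM. Intervals are exact for ratios and Wilson for shares, at 95%. Alternatives were DESeq2 1.42.0 (size factors and Wald test), total counts, TPM, no filter, a prior count of 0.5, a 4-fold threshold, leaving out each PGC library, an unadjusted p and, added after seeing the data, the authors' size factors. Members and lists were chosen with earlier results of these data known. Named genes are the 10 members and the listed genes that met the 2-fold rule or the test, with others as counts, ranges or chosen examples, and some listed genes enter the counts but are not reported here by name. Symbols without a match in the authors' table were sought through a RefSeq gene table (assembly GRCg7b, names only), which added CRABP1, RDH16 and NCOA2.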

Additional observations from a re-analysis of the deposited data

How the results depend on the processing

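Each of the 9 members that passed the filter kept the sign of its mean log2 ratio in all 8 alternatives. A 4-fold threshold left 3 members higher and 2 lower, 3 of the other retinoid genes lower, and 1491 higher and 859 lower genes overall. With TPM, 1426 genes were lower by the 2-fold rule, and the median log2 ratio of all genes stood at 0.49, with total counts at 0.34, against 0.03 with TMM. Of edgeR's calls over all genes, 50.7% were higher in PGCs with TMM and 66.9% with total counts. DESeq2's Wald test called 2 of the other retinoid genes higher, in place of 5, and 7 lower, in place of 8. Over all genes it called 2423 higher and 2293 lower of 14208, where edgeR called 3069 and 2979 of 14489. Among retinoid genes, members included, no other count moved by more than 1.5 times. With total counts, however, edgeR called 7 of the other retinoid genes higher and 6 lower, in place of 5 and 8. Which direction held more of these genes thus depended on scaling. Leaving out PGC replicate 2 left log2 ratios of 5.61 for CYP26A1 and 0.94 for CYP26B1. Leaving out PGC replicate 3 left 4.28 and 2.59, in the same order. Such fits have no residual degrees of freedom and give values without a test. No paired analysis was possible because the groups share only replicate number 2. With 1 ESC library analysed here, the spread on that side was not measured.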

Other observations

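A second gene with an RBP4-type name, RBP4A, lies 2 genes beyond CEP55 on chromosome 6, close to CYP26A1, and had 12 and 20 counts in PGC replicates 2 and 3, against 19 counts in the ESC library. RBP4A thus had log2 ratios of −0.88 and −0.14, whereas the gene named RBP4 on chromosome Z had 2.40 and 2.89, so values of retinol-binding protein 4 depend on which of these genes a symbol is taken to mean. HHEX was the flanking gene of the CYP26A1 and CYP26C1 pair with the highest ratio in PGC replicate 3. It had 96 and 180 counts in PGC replicates 2 and 3, against 44 counts in the ESC library. Its level was higher in replicate 3, as were those of the CYP26 pair. This was not particular to HHEX, since ratios of RBP4A, FFAR4, MYOF, EXOC6 and IDE were also higher in replicate 3. Those of CEP55 and KIF11 were lower.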
